A study of Drosophila melanogaster with 10 samples.

Results

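Tumorous wing discs that overexpressed Yki and were depleted of NelfA (ap > Yki+NelfAi) were compared with control discs (ap > GFP) over all genes of the deposited table. The comparison uses the 3 libraries labelled apYki_NelfAi and the 2 labelled apGFP, 5 of the 10 libraries of the series, and 7858 of the 7987 listed genes were tested. In the control group, ap-Gal4 drove UAS-GFP. In the tumorous group, ap-Gal4 drove UAS-GFP, UAS-Yki and an RNAi construct against NelfA, and the labels describe its growth as neoplastic. Gal80ts, a temperature-sensitive repressor of Gal4, was present in both groups, and the discs came from larvae in the third instar and were dissected between the fourth and the fifth day of induction. By the methods, control crosses carried 2 copies of UAS-GFP and the other crosses 1, and more discs went into a control sample than into a tumorous sample. The ap-Gal4 driver is active in dorsal cells of the disc, whereas whole discs were pooled for RNA, so that each library mixes cells with and without the transgenes.

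The wing imaginal disc is the larval epithelium that forms the adult wing blade, its hinge and the notum of the thorax, and it also carries adepithelial myoblasts and tracheal branches. Yki is the transcriptional coactivator that the Hippo kinase cascade holds back. NELF is a complex that holds RNA polymerase II in a paused state shortly after initiation, and NelfA is one of its subunits. Discs with neoplastic growth are known for delayed pupariation of the larva, which takes its timing from ecdysone.

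The values are read numbers per gene divided by a factor of each library, so that 1 read was worth between 0.0464 and 0.0839 in the 10 libraries. The 5 libraries compared held 8384594 to 13065642 reads on listed genes. The targeted genes moved as labelled. The value of yki was 265 and 307 in ap > GFP and 8143, 11380 and 9925 in ap > Yki+NelfAi (log2 fold change 5.09, SE 0.35, adjusted p = 2.75e-05, limma). That of Nelf-A was 40.4 and 36.05 in ap > GFP and 17.1, 15.8 and 16.9 in ap > Yki+NelfAi (log2 fold change -1.18, SE 0.36, adjusted p = 0.0453), and the genotypes did not overlap for either gene. The call of Nelf-A was lost in 8 of the 10 fits that left out 1 library (adjusted p = 0.213 without ap > GFP replicate 1, 0.166 without ap > GFP replicate 3, 0.0626 without ap > Yki replicate 1, 0.0696 without ap > Yki replicate 2, 0.0537 without ap > Yki replicate 3, 0.0916 without ap > Yki+NelfAi replicate 1, 0.116 without ap > Yki+NelfAi replicate 2 and 0.0999 without ap > Yki+NelfAi replicate 3). Levels are not divided by gene length and are compared between libraries only, never between genes.

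Of 7858 genes, 789 were called higher in ap > Yki+NelfAi (10.04%) and 947 lower (12.05%), by limma with a change of 1.5-fold or more and an adjusted p (Benjamini-Hochberg) below 0.05. At an unadjusted p under 0.05 there were 2771. The falls were larger than the rises: 345 genes fell at least 4-fold and 147 rose at least 4-fold, and 62 fell and 20 rose at least 16-fold. The genes called higher took 14.4% and 13.8% of the summed value of the listed genes in ap > GFP and 25.1%, 26.3% and 24.2% in ap > Yki+NelfAi. The genes called lower took 12.9% and 13.3% in ap > GFP and 4.21%, 4.44% and 5.30% in ap > Yki+NelfAi. For all 1736 called genes the libraries of the 2 genotypes did not overlap, and the same was true of 2618 higher and 2438 lower genes among all those tested. Where a lack of overlap is stated for a called gene, it therefore adds no support to the call. Changes were computed as differences of log2(value + 0.5), so that for genes near 0 they come out smaller than the true fold.

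The split between higher and lower calls depended on the scaling of the libraries. With plain CPM (reads per library total), 452 genes were called higher and 1354 lower, and the median log2 fold change of all genes moved from 0.03 to -0.21. The directions below are relative to these medians. Each control library carried many of the calls. Without ap > GFP replicate 1 there were 326 higher and 444 lower calls, and without ap > GFP replicate 3 there were 268 and 426. For this reason, a count of called members of a gene list is followed, in parentheses, by the counts without ap > GFP replicate 1 and without ap > GFP replicate 3, in that order. Leaving out either ap > NelfAi library raised the calls to 1128 and 1131 higher and to 1246 and 1247 lower. Counts of 3 or fewer members moved with other libraries as well, and where a gene behind them is named, the libraries on which its call rested are given. Where a list had no call in a direction, at most 2 of its members had an unadjusted p under 0.05 in that direction, edgeR called at most 1 and DESeq2 at most 2. In all, 227 higher and 359 lower calls were kept in each of the 10 fits that left out 1 library.

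**Figure D1:**
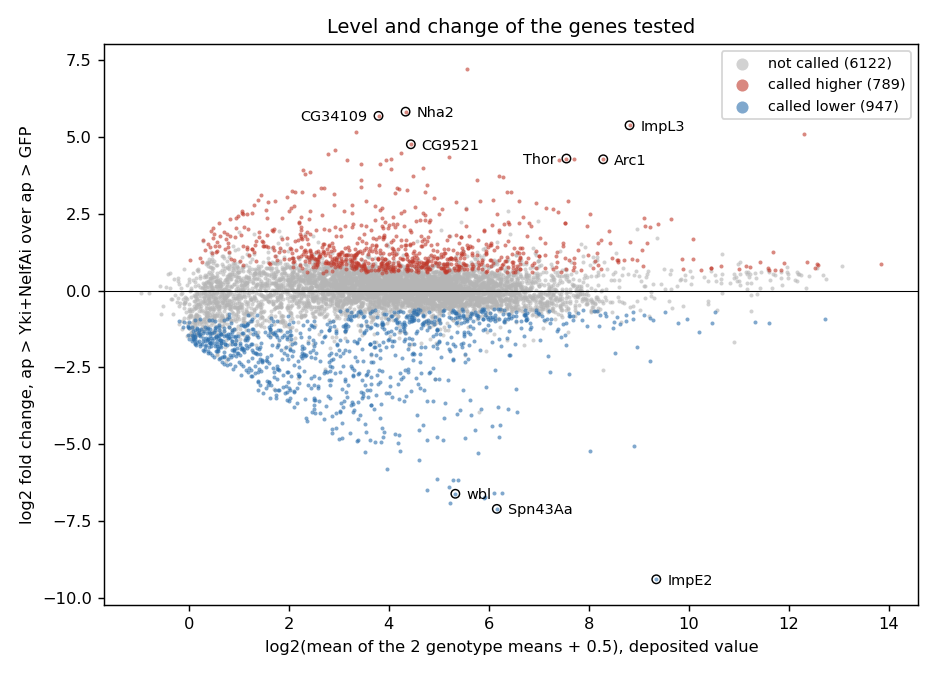
Each point is 1 of the 7858 genes, with the mean of the 2 genotype means on a log2 axis (value + 0.5) against the log2 fold change. Genes called higher (789) are red and genes called lower (947) blue. More genes lie far below 0 than far above it, with 62 called genes at least 16-fold lower and 20 at least 16-fold higher.

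Genes were sorted into 38 lists of functions and 17 lists of tissues, without ribosomal, tRNA synthetase, proteasome and ER genes, and 8 further lists of functions were added after the called genes had been read through. Of the 1037 tested genes on the first 55 lists, 92 were called higher and 221 lower. The other called genes were on none of them. A gene on several lists was counted in each. Of all called genes, on lists or not, 276 of the higher and 322 of the lower ones still have a CG or CR number as their symbol in the current annotation. The 8 added lists name the members of a function whether or not they changed, but the functions were chosen because members had been seen to change. Their counts are descriptions. The count of any list is to be read beside the 10.04% of all tested genes called higher and the 12.05% called lower. Several lists were near these shares. Genes against reactive oxygen had 11.1% higher and 16.7% lower, and transporters 10.5% and 15.8%. The share called higher was 12% in the insulin and TOR list and 12% in the JNK list. The share called lower was 17.65% among TCA cycle and pyruvate genes.

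**Figure D2:**
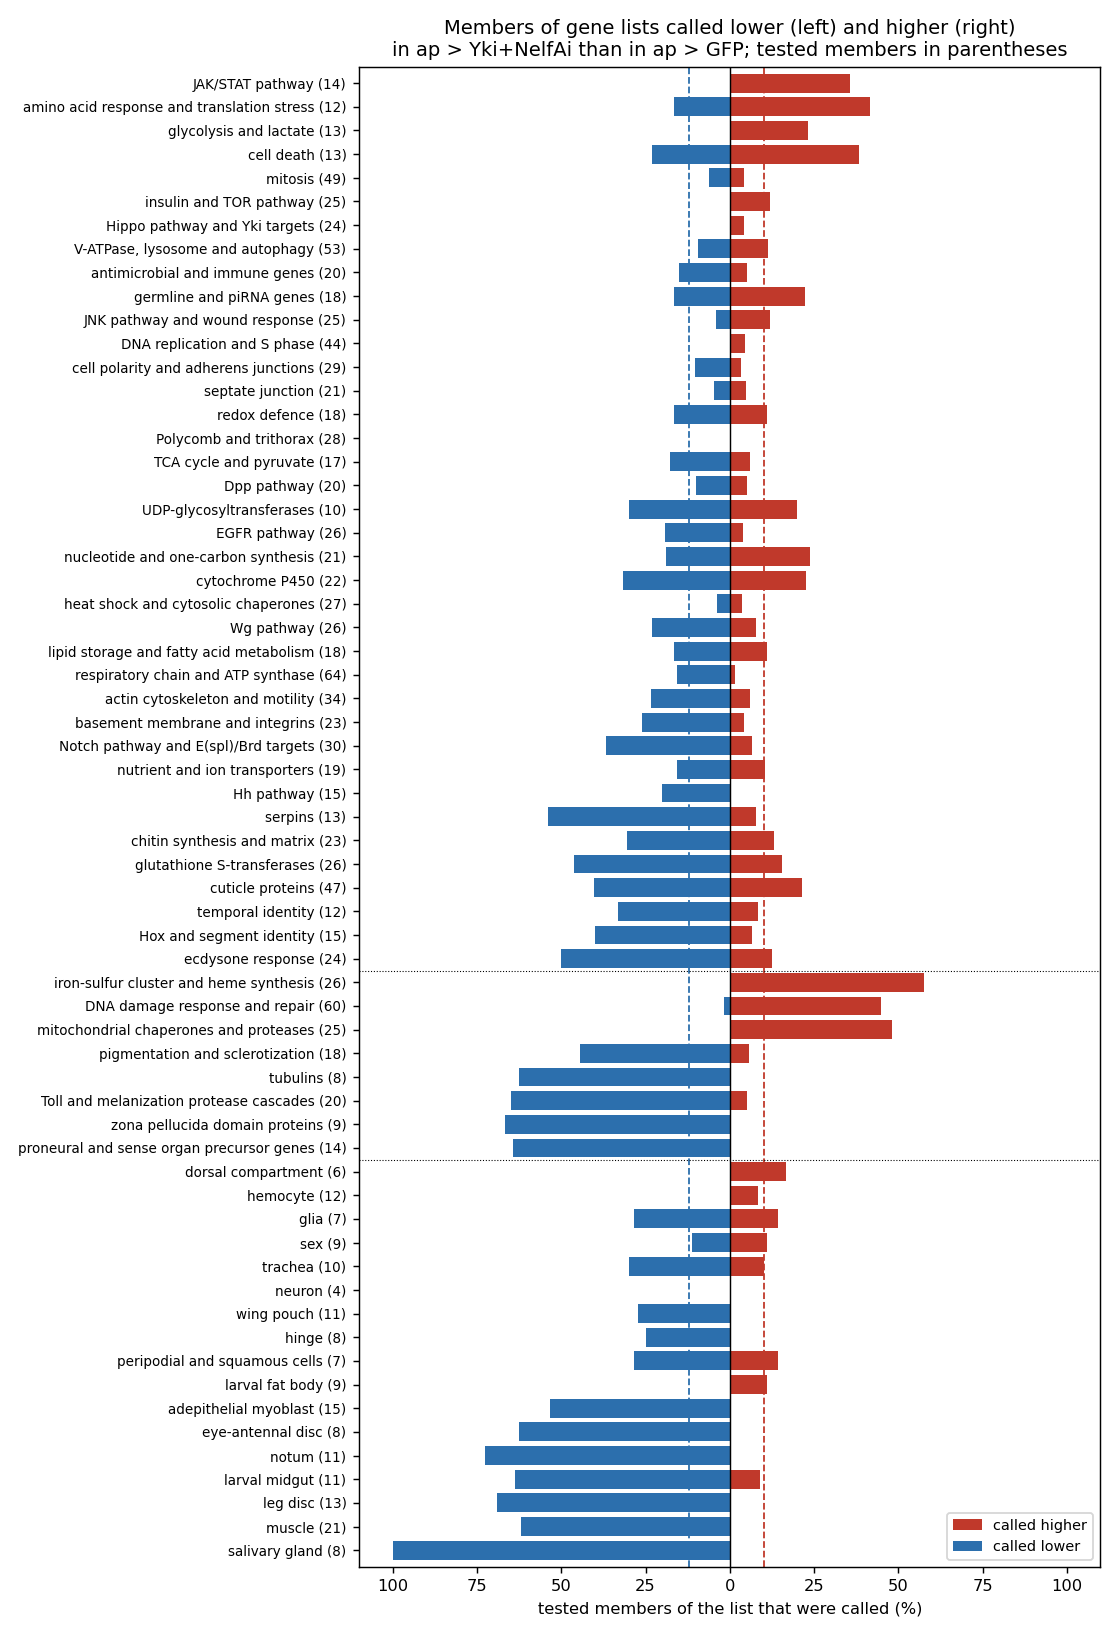
Bars give the percent of the tested members of each list that were called higher (right, red) or lower (left, blue), with the number tested in parentheses. Broken lines mark the 10.04% and 12.05% of all tested genes. Dotted lines separate, from the top, the 38 function lists, the 8 lists added after the data were read and the 17 tissue lists.

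In the DNA damage response, many more genes were called higher than lower in the tumorous discs. Of 60 tested members of this added list, 27 (11 and 12) were called higher and 1 (1 and 1) lower, and the median log2 fold change was 0.80 (0.55 with CPM, with 17 called higher). The number called higher without 1 library ran from 11 to 35. The genes named from this and the other added lists were chosen after their values had been seen. Irbp encodes Ku70, which with Ku80 binds the ends of broken DNA for end joining. The value of Irbp was 7.99 and 6.04 in ap > GFP and 42.4, 51.4 and 36.1 in ap > Yki+NelfAi (log2 fold change 2.54, SE 0.23, adjusted p = 0.000119). That of Ku80 was 7.29 and 6.53 in ap > GFP and 29.9, 35.5 and 28.4 in ap > Yki+NelfAi (log2 fold change 2.10, SE 0.26, adjusted p = 0.000603). The lowest tumorous library was above 3 times the highest control library for both genes. Lig4, the ligase of the same pathway, had values of 2.62 and 1.83 in ap > GFP and 7.07, 7.95 and 6.53 in ap > Yki+NelfAi (adjusted p = 0.00175).

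The 3 subunits of the complex that first processes double-strand breaks rose as well. The value of mre11 was 10.9 and 13.2 in ap > GFP and 41.7, 42.1 and 34.3 in ap > Yki+NelfAi (log2 fold change 1.67, SE 0.23, adjusted p = 0.00106). That of nbs was 5.5 and 5.4 in ap > GFP and 26.8, 27.2 and 22.5 in ap > Yki+NelfAi (log2 fold change 2.12, SE 0.26, adjusted p = 0.000627). For rad50 the values were 8.57 and 7.61 in ap > GFP and 38.9, 32.01 and 29.8 in ap > Yki+NelfAi (log2 fold change 1.98, SE 0.42, adjusted p = 0.0097), with the call lost without either control library (adjusted p = 0.0588 without ap > GFP replicate 1 and 0.0802 without ap > GFP replicate 3). In ap > Yki, nbs was at 5.01, 6.36 and 9.71 and rad50 at 8.52, 7.41 and 23.8, so that replicate 3 of ap > Yki lay nearer to the tumorous libraries for rad50.

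Single-strand break repair was represented by XRCC1, a scaffold, by lig3, its ligase partner, and by Parp, which marks broken DNA with ADP-ribose. XRCC1 had values of 5.63 and 5.4 in ap > GFP and 19.2, 20.1 and 18.6 in ap > Yki+NelfAi (log2 fold change 1.72, SE 0.19, adjusted p = 0.000288). The log2 fold change was 1.38 for lig3 and 1.75 for Parp, of which the second was lost without either control library (adjusted p = 0.0989 without ap > GFP replicate 1 and 0.0855 without ap > GFP replicate 3). Among the regulators, lok, the fly Chk2 kinase, was at 28.9 and 25.1 in ap > GFP and 63.6, 64.3 and 60.4 in ap > Yki+NelfAi (log2 fold change 1.20, SE 0.17, adjusted p = 0.00131). The tumour suppressor p53 was at 10.2 and 11.2 in ap > GFP and 31.4, 35.4 and 26.2 in ap > Yki+NelfAi (log2 fold change 1.48, SE 0.28, adjusted p = 0.00509, adjusted p = 0.0516 without ap > GFP replicate 1). The kinase grp, the fly Chk1, was the member called lower, at 85.03 and 86.1 in ap > GFP and 36.2, 33.7 and 47.9 in ap > Yki+NelfAi (log2 fold change -1.13, SE 0.20, adjusted p = 0.00414). The 2 libraries of ap > GFP and the 3 of ap > Yki+NelfAi did not overlap for any gene named here.

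Enzymes of DNA replication and mitosis had few called members. Of 44 members of the list for replication and S phase, 2 (0 and 0) were called higher and none lower, and their median log2 fold change was 0.04. The list for mitosis had 49 members, with 2 (1 and 0) called higher, 3 (1 and 0) lower and a median of 0.33. The 2 mitosis genes called higher were stg, the Cdc25 phosphatase that starts mitosis (72.4 and 55.96 in ap > GFP and 158, 106 and 122 in ap > Yki+NelfAi, log2 fold change 0.99, SE 0.23, adjusted p = 0.0147, adjusted p = 0.15 without ap > GFP replicate 3), and pav (0.74, adjusted p = 0.121 without ap > GFP replicate 1, 0.102 without ap > GFP replicate 3, 0.0502 without ap > Yki+NelfAi replicate 1 and 0.0576 without ap > Yki+NelfAi replicate 3), a kinesin of cytokinesis. Without either ap > NelfAi library this list had 6 higher calls. Of the 28 Polycomb and trithorax genes limma called 0, edgeR 0 and DESeq2 1, with 3 at an unadjusted p under 0.05 and a median of -0.06.

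Iron-sulfur cluster and heme synthesis had the largest share of members called higher among all lists, 15 (8 and 7) of 26 in this added list, with none lower and a median log2 fold change of 0.82 (0.56 with CPM). The list was added because members had been seen to change, so this rank follows from that choice and is not a result. Iron-sulfur clusters are assembled in mitochondria, where a cysteine desulfurase supplies sulfur to a scaffold protein, and ferrochelatase puts iron into heme. FeCH, the ferrochelatase, had values of 35.5 and 39.3 in ap > GFP and 229.9, 280 and 224 in ap > Yki+NelfAi (log2 fold change 2.69, SE 0.23, adjusted p = 7.13e-05). CG12264, named Nfs1 in the current annotation and encoding the desulfurase, was at 33.2 and 26.7 in ap > GFP and 125, 165 and 122 in ap > Yki+NelfAi (log2 fold change 2.17, SE 0.22, adjusted p = 0.000209). The scaffold CG9836, now IscU, was at 34.5 and 42.6 in ap > GFP and 98.4, 117 and 95.7 in ap > Yki+NelfAi (log2 fold change 1.42, SE 0.27, adjusted p = 0.00541, adjusted p = 0.0625 without ap > GFP replicate 1). No control library reached a tumorous one for these genes.

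Further members with a called rise were Alr, a sulfhydryl oxidase of the mitochondrial intermembrane space (11.1 and 7.61 in ap > GFP and 49.9, 59.7 and 51.3 in ap > Yki+NelfAi, log2 fold change 2.48, SE 0.21, adjusted p = 7.17e-05), and Fdxh, a mitochondrial ferredoxin (4.41 and 4.42 in ap > GFP and 14.6, 21.2 and 16.1 in ap > Yki+NelfAi, log2 fold change 1.84, SE 0.23, adjusted p = 0.000695). In ap > Yki, FeCH was at 75.96, 81.97 and 75.9 and Alr at 14.9, 18.4 and 17.04, between the values of the other 2 genotypes. The ratio of the tumorous to the control mean was 6.53 for FeCH, 4.58 for CG12264 and 3.92 for Fdxh.

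The called genes among those that fold, import or degrade mitochondrial proteins were all higher, and 13 of the 25 members were not called. Of 25 members of this added list, 12 (6 and 5) were called higher and none lower, with a median log2 fold change of 0.66. The count was 6 without ap > Yki+NelfAi replicate 2 and 7 without ap > Yki+NelfAi replicate 3. CG6512, now Afg3l2, and CG2658, now Spg7, encode AAA proteases of the inner membrane. CG6512 was at 23.7 and 24.8 in ap > GFP and 101.1, 94.2 and 89.8 in ap > Yki+NelfAi (log2 fold change 1.95, SE 0.15, adjusted p = 5.17e-05). CG2658 was at 8.44 and 7.18 in ap > GFP and 24.1, 24.9 and 26.9 in ap > Yki+NelfAi (log2 fold change 1.64, SE 0.17, adjusted p = 0.000265). Lon, the protease of the matrix, was at 34.4 and 33.9 in ap > GFP and 94.5, 97.4 and 82.3 in ap > Yki+NelfAi (log2 fold change 1.40, SE 0.16, adjusted p = 0.00038). Opa1, which fuses inner membranes, had a log2 fold change of 1.31, and the import receptor Tom70 one of 1.15. Both were called in every fit that left out 1 library.

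Of 64 genes for complexes of the respiratory chain and the ATP synthase, 10 (0 and 1) were called lower, which is 15.6% beside 12.05% of all tested genes, and 1 (0 and 0) higher, with a median log2 fold change of -0.39. This count was not stable, since the number called lower was also 3 without ap > Yki+NelfAi replicate 1 or 2, 4 without ap > Yki replicate 2 and 20 without either ap > NelfAi library, and 28 with CPM. Glycolysis had 3 (2 and 2) of 13 members called higher and a median of 0.45. Apart from lactate dehydrogenase (ImpL3, 5.38), these were the aldolase Ald (268 and 217 in ap > GFP and 865, 1337 and 1084 in ap > Yki+NelfAi, log2 fold change 2.16, SE 0.22, adjusted p = 0.000221) and PyK, pyruvate kinase (138 and 136.5 in ap > GFP and 195, 237 and 195 in ap > Yki+NelfAi, log2 fold change 0.60, SE 0.16, adjusted p = 0.0254, adjusted p = 0.139 without ap > GFP replicate 1, 0.16 without ap > GFP replicate 3, 0.0965 without ap > Yki+NelfAi replicate 2 and 0.0529 without ap > Yki+NelfAi replicate 3).

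Of 17 TCA cycle and pyruvate genes, 1 (1 and 1) was called higher and 3 (0 and 1) lower. Men, the malic enzyme that makes pyruvate and NADPH from malate, was at 10.1 and 7.66 in ap > GFP and 49.5, 98.96 and 66.2 in ap > Yki+NelfAi (log2 fold change 2.90, SE 0.31, adjusted p = 0.000284). CG1516, the pyruvate carboxylase PCB, was at 56.7 and 31.4 in ap > GFP and 17.6, 17 and 17.5 in ap > Yki+NelfAi (log2 fold change -1.26, SE 0.31, adjusted p = 0.0178, adjusted p = 0.179 without ap > GFP replicate 1 and 0.0554 without ap > Yki+NelfAi replicate 2). The fumarase gene l(1)G0255 fell to 53.5% of the control mean, at 89.6 and 89.8 in ap > GFP and 45.2, 48.04 and 50.6 in ap > Yki+NelfAi (log2 fold change -0.90, SE 0.20, adjusted p = 0.0104, adjusted p = 0.0783 without ap > GFP replicate 1 and 0.0832 without ap > GFP replicate 3). No other member was called but Idh, lower as well (-0.99, adjusted p = 0.0933 without ap > GFP replicate 1, 0.126 without ap > GFP replicate 3 and 0.0577 without ap > Yki+NelfAi replicate 1).

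Of 18 tested genes of lipid storage and fatty acids, 2 (1 and 1) were called higher and 3 (1 and 1) lower, which is 11.1% and 16.7% beside 10.04% and 12.05% of all tested genes. Desat1, the stearoyl-CoA desaturase of lipid synthesis, rose, with values of 194 and 155 in ap > GFP and 493, 524 and 510.5 in ap > Yki+NelfAi (log2 fold change 1.55, SE 0.19, adjusted p = 0.000623). The acyl-CoA synthetase gene pdgy fell, with values of 55.1 and 71.5 in ap > GFP and 10.1, 11.2 and 17.9 in ap > Yki+NelfAi (log2 fold change -2.27, SE 0.26, adjusted p = 0.000436), and so did whd, the carnitine palmitoyltransferase gene, at 32.9 and 28.8 in ap > GFP and 11.3, 9.8 and 9.93 in ap > Yki+NelfAi (log2 fold change -1.53, SE 0.33, adjusted p = 0.0101, adjusted p = 0.0849 without ap > GFP replicate 1 and 0.0595 without ap > GFP replicate 3). In ap > Yki, pdgy was at 104, 91.3 and 98.1, above both other genotypes.

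Of 21 genes for nucleotides and one-carbon units, 5 (3 and 3) were called higher and 4 (1 and 1) lower, the second count falling to 1 without ap > Yki+NelfAi replicate 1 or 3 and to 2 without ap > Yki+NelfAi replicate 2 or ap > Yki replicate 2. AdSS, adenylosuccinate synthetase, was at 40.5 and 36.7 in ap > GFP and 98.6, 103 and 89.7 in ap > Yki+NelfAi (log2 fold change 1.32, SE 0.18, adjusted p = 0.00106). The multifunctional enzyme ade3 was at 25.6 and 23.5 in ap > GFP and 50.6, 51.3 and 50.3 in ap > Yki+NelfAi (log2 fold change 1.03, SE 0.15, adjusted p = 0.00148). The enzyme ade5, which acts between them in the same route, was lower, at 67.3 and 63.9 in ap > GFP and 23.7, 20.2 and 26.6 in ap > Yki+NelfAi (log2 fold change -1.47, SE 0.24, adjusted p = 0.00238). In ap > Yki ade5 was at 95.96, 77.5 and 70.9.

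Among transporters, Nha2, a sodium-proton antiporter, rose most, with values of 0.32 and 0 in ap > GFP and 62.9, 31.2 and 23.3 in ap > Yki+NelfAi (log2 fold change 5.83, SE 0.46, adjusted p = 5.08e-05). It was at 4.91, 3.7 and 2.46 in ap > Yki. The amino acid transporter JhI-21 was at 84.1 and 74.4 in ap > GFP and 152, 201 and 172 in ap > Yki+NelfAi (log2 fold change 1.13, SE 0.24, adjusted p = 0.00857, adjusted p = 0.0861 without ap > GFP replicate 3). Of 19 transporters 2 (2 and 1) were called higher and 3 (0 and 0) lower. Among the lower ones, Glut1, a glucose transporter, was at 19.2 and 18.6 in ap > GFP and 8.54, 10.5 and 8.28 in ap > Yki+NelfAi (log2 fold change -1.02, SE 0.27, adjusted p = 0.0228, adjusted p = 0.131 without ap > GFP replicate 1, 0.123 without ap > GFP replicate 3, 0.0644 without ap > Yki+NelfAi replicate 1 and 0.0711 without ap > Yki+NelfAi replicate 3).

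Of 26 glutathione S-transferases, which join glutathione to reactive compounds, 12 (8 and 7) were called lower and 4 (1 and 1) higher, with a median log2 fold change of -0.80. The number called higher was 2 without ap > Yki+NelfAi replicate 1 or 2. GstO3 was at 104 and 110.5 in ap > GFP and 3.94, 9.39 and 8.78 in ap > Yki+NelfAi (log2 fold change -3.86, SE 0.36, adjusted p = 0.000131). GstE11 was at 119 and 152 in ap > GFP and 21.2, 33.2 and 41.8 in ap > Yki+NelfAi (log2 fold change -2.10, SE 0.36, adjusted p = 0.00295). GstE6 went up, at 5.88 and 5.07 in ap > GFP and 36.4, 27.8 and 17.4 in ap > Yki+NelfAi (log2 fold change 2.15, SE 0.31, adjusted p = 0.00117). Gst genes lie in clusters of related copies, and reads without a unique place, which the table holds in a row of their own (16.9% to 21.8% of all reads in the 5 compared libraries), are not part of their values.

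Of 22 cytochrome P450 genes, 5 (3 and 3) were called higher and 7 (4 and 4) lower. Cyp18a1, which inactivates ecdysone by oxidation, was at 3.13 and 2.32 in ap > GFP and 34.7, 30.3 and 31.7 in ap > Yki+NelfAi (log2 fold change 3.35, SE 0.18, adjusted p = 1.6e-05) and at 21.6, 19.4 and 19.97 in ap > Yki. Cyp310a1 was at 8.63 and 9.77 in ap > GFP and 0.19, 1.17 and 0.599 in ap > Yki+NelfAi (log2 fold change -3.16, SE 0.45, adjusted p = 0.00124). Cyp6a17 was at 8.44 and 9.88 in ap > GFP and 0, 0.0685 and 0.0499 in ap > Yki+NelfAi, which is 2 reads in all in the tumorous libraries, so no fold is given. The number of P450 genes called higher fell to 3 without ap > Yki+NelfAi replicate 1 or 2. Of 10 UDP-glycosyltransferases, 2 (0 and 1) were called higher and 3 (3 and 3) lower.

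Of 18 genes against reactive oxygen, 2 (2 and 2) were called higher and 3 (2 and 2) lower. Gclc, the catalytic subunit of the enzyme that starts glutathione synthesis, was at 4.73 and 5.13 in ap > GFP and 27.8, 24.1 and 17.9 in ap > Yki+NelfAi (log2 fold change 2.11, SE 0.30, adjusted p = 0.00115), and the peroxiredoxin Jafrac1 at 584 and 449.8 in ap > GFP and 1639, 1798 and 1556 in ap > Yki+NelfAi (log2 fold change 1.70, SE 0.22, adjusted p = 0.000792). Catalase (Cat) was at 265 and 270.3 in ap > GFP and 79.1, 109.7 and 104 in ap > Yki+NelfAi (log2 fold change -1.46, SE 0.19, adjusted p = 0.000774). The extracellular superoxide dismutase Sod3 was at 114 and 104 in ap > GFP and 5.46, 18.02 and 17.01 in ap > Yki+NelfAi (log2 fold change -3.13, SE 0.42, adjusted p = 0.000898). In ap > Yki, Sod3 was at 128, 106 and 116, within or above the control values.

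**Figure D3:**
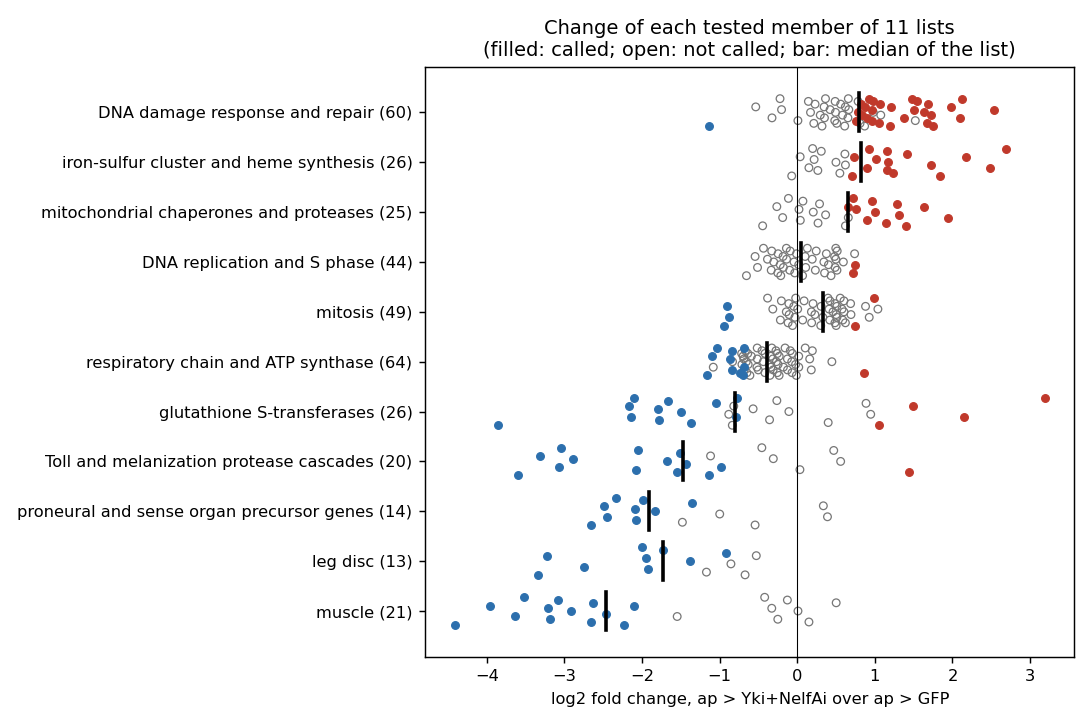
Each point is the log2 fold change of 1 tested member of 11 lists, filled red where called higher, filled blue where called lower and open where not called, and bars mark the list medians. The 3 lists at the top have medians of 0.80, 0.82 and 0.66, the replication list has one of 0.04, and the muscle list one of -2.46. These 3 lists, the Toll list and the proneural list were added because members had been seen to change, so their medians partly follow from that choice.

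Called stress regulators of translation went in both directions. Of 12 genes of the amino acid response, 5 (1 and 2) were called higher and 2 (1 and 1) lower, with a median log2 fold change of 0.83. The first count was 3 without ap > Yki+NelfAi replicate 1 and 2 without replicate 2 or 3. Thor, the 4E-BP that holds back cap-dependent translation and is a known target of Foxo and of crc, was at 25.2 and 12.03 in ap > GFP and 308, 413 and 347 in ap > Yki+NelfAi (log2 fold change 4.30, SE 0.33, adjusted p = 4.52e-05), and at 85.2, 74.8 and 79.1 in ap > Yki. The transcription factor crc, the fly ATF4, was at 598 and 639.6 in ap > GFP and 1267, 1380 and 1110 in ap > Yki+NelfAi (log2 fold change 1.01, SE 0.20, adjusted p = 0.00635, adjusted p = 0.0642 without ap > GFP replicate 1). CG11899, the phosphoserine aminotransferase of serine synthesis, fell, with values of 83.9 and 115.4 in ap > GFP and 0.664, 6.79 and 8.88 in ap > Yki+NelfAi (log2 fold change -4.52, SE 0.73, adjusted p = 0.00228).

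CG6272, now Irbp18, encodes the C/EBP-like partner of Xrp1 in the same response. It was at 4.86 and 7.23 in ap > GFP and 23.5, 37.9 and 24.9 in ap > Yki+NelfAi (log2 fold change 2.15, SE 0.41, adjusted p = 0.00587, adjusted p = 0.0652 without ap > GFP replicate 1). Xrp1 itself was at 247 and 205 in ap > GFP and 779.5, 642 and 633 in ap > Yki+NelfAi (log2 fold change 1.60, SE 0.42, adjusted p = 0.0249), but its call was lost when any 1 of the 5 libraries was left out (adjusted p = 0.0992 without ap > GFP replicate 1, 0.165 without ap > GFP replicate 3, 0.072 without ap > Yki+NelfAi replicate 1, 0.0617 without ap > Yki+NelfAi replicate 2 and 0.057 without ap > Yki+NelfAi replicate 3). The genotypes did not overlap for either gene, which holds for every called gene.

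Within the insulin and TOR list, 3 (3 and 1) of 25 genes were called higher and none lower. Besides Thor these were ImpL2, a secreted binder of insulin-like peptides (92.3 and 88.6 in ap > GFP and 285, 577 and 356 in ap > Yki+NelfAi, log2 fold change 2.10, SE 0.40, adjusted p = 0.00589, adjusted p = 0.0528 without ap > GFP replicate 3), and the prolyl hydroxylase gene Hph (1.29, adjusted p = 0.11 without ap > GFP replicate 3). In ap > Yki, ImpL2 was at 85.1, 97.5 and 92.8, close to the control values. The list had 6 higher calls without either ap > NelfAi library.

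Cell death genes were called in both directions, 5 (0 and 2) of 13 higher and 3 (2 and 2) lower. The first count was 3 without ap > Yki+NelfAi replicate 1 or 3 and 2 without replicate 2. The higher ones were p53, Xrp1, CG6272, Iap2 and Dredd, of which Iap2 encodes an inhibitor of apoptosis (47.8 and 48.5 in ap > GFP and 74.04, 80.2 and 67.9 in ap > Yki+NelfAi, log2 fold change 0.61, SE 0.16, adjusted p = 0.023, adjusted p = 0.141 without ap > GFP replicate 1, 0.138 without ap > GFP replicate 3, 0.061 without ap > Yki+NelfAi replicate 1 and 0.0872 without ap > Yki+NelfAi replicate 2). Dredd, a caspase gene of the immune response, was at 18.9 and 15.2 in ap > GFP and 27.04, 31.2 and 27.9 in ap > Yki+NelfAi (log2 fold change 0.74, SE 0.19, adjusted p = 0.0237, adjusted p = 0.0656 without ap > GFP replicate 1, 0.212 without ap > GFP replicate 3, 0.0843 without ap > Yki+NelfAi replicate 2 and 0.06 without ap > Yki+NelfAi replicate 3). The activator rpr was at 19.2 and 16.8 in ap > GFP and 4.51, 3.91 and 1.995 in ap > Yki+NelfAi (log2 fold change -2.28, SE 0.33, adjusted p = 0.0012). The effector caspase gene Dcp-1 was at 54.9 and 45.2 in ap > GFP and 22.9, 19.5 and 24.4 in ap > Yki+NelfAi (log2 fold change -1.15, SE 0.18, adjusted p = 0.00211). Neither call was lost in any fit that left out 1 library.

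The longest run of neighbouring called genes was the Enhancer of split complex, whose genes are turned on by Notch and whose HLH members repress neural fate. In the annotation of the dm6 assembly, 9 neighbouring tested genes of the complex were all called lower, on chromosome 3R from position 25997621 to 26038019, with a median log2 fold change of -2.81. The value of E(spl)m2-BFM was 29.03 and 36.4 in ap > GFP and 0.379, 0.617 and 1.7 in ap > Yki+NelfAi (log2 fold change -4.68, SE 0.35, adjusted p = 3.71e-05). That of E(spl)mdelta-HLH was 22.2 and 25.6 in ap > GFP and 0.949, 1.58 and 1.05 in ap > Yki+NelfAi (log2 fold change -3.87, SE 0.24, adjusted p = 2.54e-05). E(spl)mbeta-HLH was at 240.3 and 269 in ap > GFP and 32.7, 55.7 and 35.4 in ap > Yki+NelfAi (log2 fold change -2.65, SE 0.25, adjusted p = 0.000135). All control libraries lay above all tumorous ones for the 9 genes, and for 8 of them the call was kept in each fit that left out 1 library, E(spl)m4-BFM being the exception (adjusted p = 0.245 without ap > GFP replicate 1, 0.123 without ap > GFP replicate 3, 0.0624 without ap > Yki replicate 1, 0.0623 without ap > Yki replicate 2, 0.0507 without ap > Yki replicate 3, 0.11 without ap > Yki+NelfAi replicate 1 and 0.125 without ap > Yki+NelfAi replicate 3).

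The tenth gene of the complex that was tested, E(spl)m8-HLH, was not called, with overlapping values of 10.42 and 9.01 in ap > GFP and 3.04, 11.4 and 9.78 in ap > Yki+NelfAi (adjusted p = 0.54). In ap > Yki the values were 11.3, 9.12 and 8.36 for E(spl)m2-BFM and 7.12, 7.08 and 10.1 for E(spl)mdelta-HLH, between those of the other genotypes. Over the whole Notch list of 30 genes, 11 (9 and 9) were called lower and 2 (2 and 2) higher. The higher ones were Brd, a Bearded family inhibitor of the ubiquitin ligase Neuralized (4.47 and 2.48 in ap > GFP and 21.9, 24.1 and 27.4 in ap > Yki+NelfAi, log2 fold change 2.69, SE 0.24, adjusted p = 0.00011), and fng, which adds sugar to Notch in dorsal cells (100.8 and 80.5 in ap > GFP and 323, 229 and 247 in ap > Yki+NelfAi, log2 fold change 1.54, SE 0.22, adjusted p = 0.00123).

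In an added list of genes that make sense organ precursors, 9 (6 and 5) of 14 tested members were called lower and none higher, with a median log2 fold change of -1.90. The proneural genes ac and sc were at 5.75 and 5.83 in ap > GFP and 0.712, 0.891 and 1.45 in ap > Yki+NelfAi and at 8.76 and 6.48 in ap > GFP and 0.617, 2.19 and 1.75 in ap > Yki+NelfAi (-2.08 and -2.09 on the log2 scale, adjusted p = 0.00317 and 0.0032). The homeodomain factor pros was at 3.77 and 3.02 in ap > GFP and 0.237, 0.137 and 0 in ap > Yki+NelfAi (log2 fold change -2.65, SE 0.48, adjusted p = 0.00436), and phyl, an adaptor of precursor fate, at 2.81 and 3.29 in ap > GFP and 0.142, 0.274 and 0.0499 in ap > Yki+NelfAi (log2 fold change -2.45, SE 0.32, adjusted p = 0.000846). None of these 4 calls was lost when 1 library was left out.

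**Figure D4:**
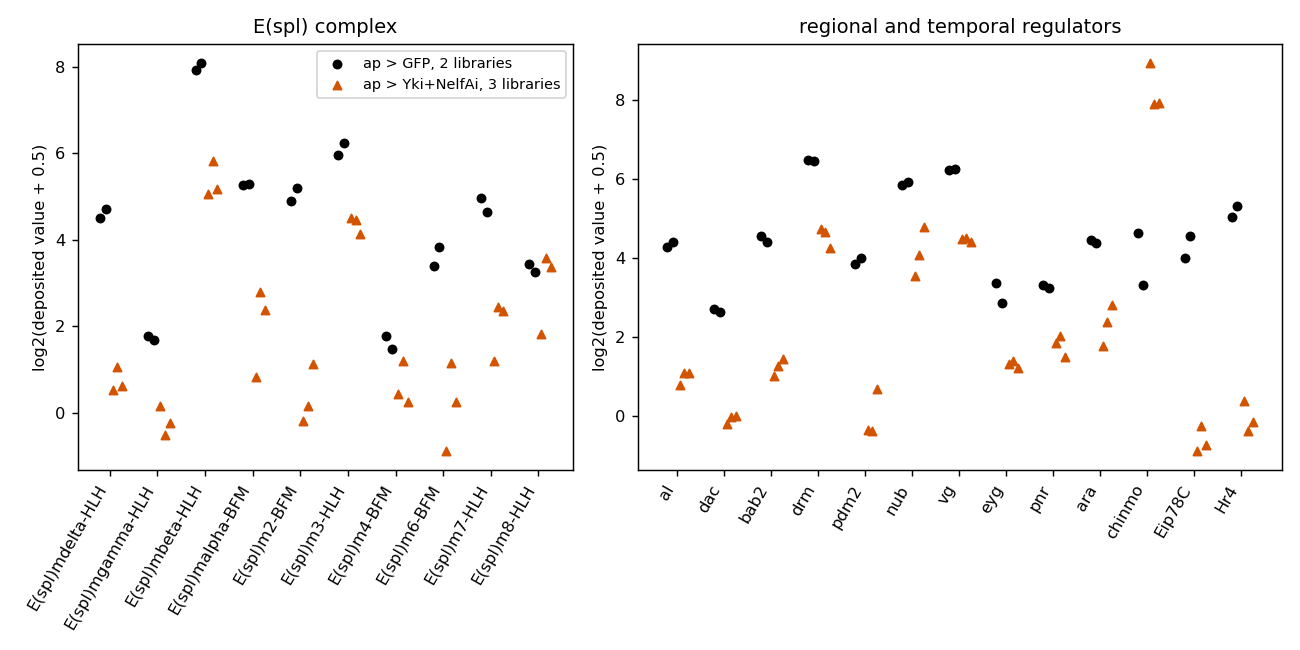
Values of single libraries on a log2(value + 0.5) axis for the 10 tested genes of the E(spl) complex (left) and for 13 regional and temporal regulators (right). Circles are the 2 ap > GFP libraries and triangles the 3 ap > Yki+NelfAi libraries. The symbols overlap for E(spl)m8-HLH only, and chinmo is the gene with higher tumorous values.

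Among regulators that give discs and disc regions their identity, the notum and leg lists had most of their members called lower when all libraries were used, and the pouch and hinge lists did not. In the notum list 8 (5 and 5) of 11 genes were called lower, and none higher. The neighbouring genes ara, caup and mirr of the Iroquois complex, with 2 noncoding genes between them, formed another run of called genes on chromosome 3L from position 12580672 to 12710249. The value of ara was 21.4 and 20.4 in ap > GFP and 2.94, 4.73 and 6.53 in ap > Yki+NelfAi (log2 fold change -2.09, SE 0.28, adjusted p = 0.000909). For mirr it was 39.3 and 30.5 in ap > GFP and 7.92, 6.72 and 9.33 in ap > Yki+NelfAi (log2 fold change -2.06, SE 0.46, adjusted p = 0.0119, adjusted p = 0.0988 without ap > GFP replicate 1 and 0.0595 without ap > GFP replicate 3). The call of caup was lost without either control library (adjusted p = 0.102 without ap > GFP replicate 1 and 0.0635 without ap > GFP replicate 3). Outside this run, eyg, needed for the notum, was at 9.91 and 6.75 in ap > GFP and 1.99, 2.12 and 1.84 in ap > Yki+NelfAi (log2 fold change -1.80, SE 0.23, adjusted p = 0.000781), and pnr, a GATA factor of the medial notum, at 9.4 and 8.96 in ap > GFP and 3.08, 3.56 and 2.34 in ap > Yki+NelfAi (log2 fold change -1.48, SE 0.24, adjusted p = 0.0024).

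Of 11 wing pouch genes 3 (2 and 2) were called lower. They were pdm2, at 13.8 and 15.5 in ap > GFP and 0.285, 0.274 and 1.1 in ap > Yki+NelfAi (log2 fold change -3.94, SE 0.49, adjusted p = 0.000641), vg, the wing selector that acts with Sd, at 74.04 and 75.4 in ap > GFP and 21.7, 22.3 and 20.6 in ap > Yki+NelfAi (log2 fold change -1.77, SE 0.21, adjusted p = 0.000532), and nub, at 57.03 and 59.6 in ap > GFP and 11.2, 16.3 and 26.8 in ap > Yki+NelfAi (log2 fold change -1.75, SE 0.37, adjusted p = 0.00929, adjusted p = 0.0625 without ap > GFP replicate 1 and 0.0736 without ap > GFP replicate 3). The summed value of the whole pouch list was 572 and 518 in ap > GFP and 619, 509 and 580.2 in ap > Yki+NelfAi, with overlapping libraries. Of 8 hinge genes 2 (0 and 0) were called lower, and for tsh, which marks the hinge and notum, the values were 106 and 96.5 in ap > GFP and 73.7, 32.4 and 35.7 in ap > Yki+NelfAi (adjusted p = 0.0927). The dorsal list, which includes the gene behind the driver, had 1 (1 and 1) of 6 members called higher, fng, and none lower. Of 7 genes of peripodial and squamous cells, 1 (1 and 1) was called higher, os, and 2 (1 and 1) lower.

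Leg and eye genes are expressed in small domains of the wing disc or in other discs. Of 13 leg genes 9 (5 and 7) were called lower and none higher, and of 8 eye-antennal genes 5 (0 and 1), the latter only 3 without ap > Yki+NelfAi replicate 1 or 2. The homeobox gene al was at 19.1 and 20.6 in ap > GFP and 1.23, 1.65 and 1.65 in ap > Yki+NelfAi (log2 fold change -3.34, SE 0.21, adjusted p = 2.54e-05). The values of bab2 were 22.9 and 20.7 in ap > GFP and 1.52, 1.92 and 2.25 in ap > Yki+NelfAi (log2 fold change -3.23, SE 0.42, adjusted p = 0.000793), and those of dac 6.01 and 5.72 in ap > GFP and 0.379, 0.48 and 0.499 in ap > Yki+NelfAi (log2 fold change -2.74, SE 0.35, adjusted p = 0.000772). The zinc finger gene drm was at 89.3 and 87.6 in ap > GFP and 26.04, 24.9 and 18.6 in ap > Yki+NelfAi (log2 fold change -1.92, SE 0.21, adjusted p = 0.000298). None of these 4 genes had overlapping libraries. The leg list shares drm and sob with the list of peripodial and squamous cells, and al and dac with that of homeotic and segment genes. The counts of these lists are therefore not separate. The summed value of the leg list was 446 and 409 in ap > GFP and 199, 164 and 199 in ap > Yki+NelfAi.

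Among homeotic genes, Scr was at 1.85 and 4.37 in ap > GFP and 0, 0 and 0 in ap > Yki+NelfAi, which makes its mean in ap > GFP at least 18.8-fold higher than 3 reads per library. Dfd was at 2.11 and 1.51 in ap > GFP and 0.0474, 0 and 0 in ap > Yki+NelfAi, 1 read in all in the tumorous libraries. Scr and Dfd give head and first thoracic segments their identity, and in ap > Yki they were at 0.0539, 0.0475 and 0 and 0, 0 and 0.0464. Both genes lie next to each other on chromosome 3R, in a run of 4 neighbouring genes called lower with Ama and pncr002:3R. Antp, the homeotic gene of the wing-bearing segment, was at 38.8 and 28.8 in ap > GFP and 41.2, 28.2 and 30.9 in ap > Yki+NelfAi, with overlapping values (adjusted p = 0.983). Over the list of 15 homeotic and segment genes 6 (4 and 4) were called lower and 1 (1 and 0) higher. The gene lab, also counted among midgut genes, was higher, at 0.511 and 0.108 in ap > GFP and 1.85, 2.33 and 2.49 in ap > Yki+NelfAi (log2 fold change 1.79, SE 0.33, adjusted p = 0.00493, adjusted p = 0.0635 without ap > GFP replicate 3).

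In the lists for signals that pattern the disc, most members were not called. The Wg list had 26 members, of which 2 (1 and 1) were called higher and 6 (5 and 4) lower. The ligand gene wg was at 38.7 and 34.4 in ap > GFP and 105, 78.1 and 75.7 in ap > Yki+NelfAi (log2 fold change 1.21, SE 0.21, adjusted p = 0.00339). Other Wnt ligands fell, Wnt2 at 19.4 and 23.3 in ap > GFP and 1.52, 3.36 and 3.29 in ap > Yki+NelfAi (log2 fold change -2.82, SE 0.35, adjusted p = 0.000641) and Wnt6 at 6.71 and 7.72 in ap > GFP and 1.56, 1.71 and 0.948 in ap > Yki+NelfAi (log2 fold change -2.04, SE 0.28, adjusted p = 0.00105). In the Hedgehog list, which had 7 lower calls without either ap > NelfAi library, 3 (2 and 1) of 15 genes were called lower, among them en, the posterior selector, at 12.98 and 14.8 in ap > GFP and 1.95, 2.74 and 5.64 in ap > Yki+NelfAi (log2 fold change -1.98, SE 0.36, adjusted p = 0.00439). The Dpp list had 1 (0 and 0) of 20 members called higher and 2 (2 and 1) lower, and 3 and 5 without either ap > NelfAi library. In the EGFR list of 26 genes, 1 (1 and 1) was called higher and 5 (3 and 3) lower, or 8 lower without either ap > NelfAi library. The lower ones included the Iroquois genes ara, caup and mirr. The ligand gene spi was at 61.3 and 61.3 in ap > GFP and 165, 114.8 and 123 in ap > Yki+NelfAi (log2 fold change 1.11, SE 0.19, adjusted p = 0.00322) and rho, which encodes the protease that releases it, at 4.03 and 5.67 in ap > GFP and 1.09, 1.1 and 0.998 in ap > Yki+NelfAi (log2 fold change -1.76, SE 0.30, adjusted p = 0.00301).

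The Hippo list holds the kinases above Yki and known targets of Yki. It had 3 higher calls without either ap > NelfAi library, and 5 higher and 1 lower with the 2 compared genotypes alone. DESeq2 called 2 higher and edgeR 0, and with CPM 0 were higher and 2 lower. With limma and all libraries, 1 (0 and 0) of 24 genes was called higher and none lower, with a median log2 fold change of 0.29. The one called was kibra, an upstream activator of the kinases (38.8 and 25.8 in ap > GFP and 222, 143 and 154 in ap > Yki+NelfAi, log2 fold change 2.40, SE 0.71, adjusted p = 0.0379), and its call was lost in 7 of the 10 fits that left out 1 library (adjusted p = 0.116 without ap > GFP replicate 1, 0.219 without ap > GFP replicate 3, 0.0512 without ap > Yki replicate 1, 0.0529 without ap > Yki replicate 2, 0.101 without ap > Yki+NelfAi replicate 1, 0.0772 without ap > Yki+NelfAi replicate 2 and 0.0795 without ap > Yki+NelfAi replicate 3).

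Within the JAK/STAT list, 5 (2 and 2) of 14 genes were called higher and none lower, with a median log2 fold change of 0.88, and the count was 8 without either ap > NelfAi library. The ligand genes os (upd1) and upd3 were called, with log2 fold changes of 2.53 and 3.37, and upd2 was not (1.85 and 1.83 in ap > GFP and 3.75, 6.85 and 3.39 in ap > Yki+NelfAi, adjusted p = 0.0653). Another of the 5 was chinmo, which is counted again below among genes that mark the age of a tissue. The JNK list of 25 genes had 3 (3 and 2) called higher, Ilp8, cher and Traf4, and 1 (1 and 1) lower, the metalloprotease gene Mmp2, at 18.4 and 17 in ap > GFP and 2.13, 2.54 and 2.1 in ap > Yki+NelfAi (log2 fold change -2.73, SE 0.47, adjusted p = 0.00337). Ilp8, the relaxin-like peptide that delays pupariation, was at 6.2 and 2.48 in ap > GFP and 10.8, 20.4 and 54.8 in ap > Yki+NelfAi (log2 fold change 2.40, SE 0.59, adjusted p = 0.0186, adjusted p = 0.176 without ap > GFP replicate 3), below its 73.3, 100 and 72.3 in ap > Yki. Mmp1, a marker of invasive discs, was at 68.5 and 82.7 in ap > GFP and 138, 104 and 91.3 in ap > Yki+NelfAi, and was not called (adjusted p = 0.635). In ap > NelfAi, Mmp1 was at 12.9 and 109. With the 2 compared genotypes alone, limma gave adjusted p = 0.0578 for Mmp1, and over all genotypes edgeR gave 0.601 and DESeq2 0.613.

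Genes that follow ecdysone formed one of the groups with the largest falls, 12 (8 and 8) of 24 lower and 3 (2 and 1) higher, with a median log2 fold change of -1.48. The list holds the receptor, early nuclear receptors and late effectors. The higher ones were ImpL2, Cyp18a1 and the nuclear receptor gene ftz-f1, at 7.22 and 2.91 in ap > GFP and 33.1, 19.9 and 19.4 in ap > Yki+NelfAi (log2 fold change 2.22, SE 0.69, adjusted p = 0.0468), a call lost in 7 of the 10 fits that left out 1 library (adjusted p = 0.0838 without ap > GFP replicate 1, 0.307 without ap > GFP replicate 3, 0.0621 without ap > Yki replicate 1, 0.0648 without ap > Yki replicate 2, 0.124 without ap > Yki+NelfAi replicate 1, 0.0923 without ap > Yki+NelfAi replicate 2 and 0.0854 without ap > Yki+NelfAi replicate 3). The receptor genes EcR and usp were not called, with EcR at 67.6 and 44.95 in ap > GFP and 85.8, 63.1 and 66.2 in ap > Yki+NelfAi and usp at 18.99 and 22.3 in ap > GFP and 17.2, 15.8 and 19.8 in ap > Yki+NelfAi. The nuclear receptor gene Eip78C was at 15.6 and 23.2 in ap > GFP and 0.0474, 0.343 and 0.0998 in ap > Yki+NelfAi (log2 fold change -4.91, SE 0.45, adjusted p = 0.000125). Hr4 was at 32.5 and 39.5 in ap > GFP and 0.806, 0.274 and 0.399 in ap > Yki+NelfAi (log2 fold change -5.23, SE 1.04, adjusted p = 0.00682, adjusted p = 0.0594 without ap > GFP replicate 3). For Hr46 (DHR3) the values were 5.56 and 4.8 in ap > GFP and 0, 0 and 0 in ap > Yki+NelfAi, which makes the control mean at least 31.2-fold higher than 3 reads per library.

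Off the list, and chosen after their values had been seen, the hormone-induced regulators Blimp-1 and Sox14 were at 15.3 and 12.8 in ap > GFP and 0, 0.343 and 0.15 in ap > Yki+NelfAi and at 16.4 and 16.6 in ap > GFP and 2.32, 3.15 and 3.39 in ap > Yki+NelfAi (log2 fold changes -4.49 and -2.31). Among the effectors, ImpE2, named for its induction by ecdysone in discs, was at 1246 and 1360 in ap > GFP and 0.379, 1.37 and 3.84 in ap > Yki+NelfAi (log2 fold change -9.40, SE 0.64, adjusted p = 2.75e-05). The log2 fold change was -5.28 for ImpE1 and -6.74 for ImpE3. In ap > Yki, Eip78C was at 1.995, 1.47 and 0.557 and Blimp-1 at 0.647, 1.71 and 0.65, nearer to the tumorous than to the control libraries.

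Of 12 tested genes that mark the age of a tissue, 1 (0 and 0) was called higher and 4 (2 and 2) lower, pdm2 and nub among the latter. The BTB factor chinmo, which is known for early larval identity and was the one called higher, was at 24.4 and 9.55 in ap > GFP and 484, 238 and 239.9 in ap > Yki+NelfAi (log2 fold change 4.26, SE 1.02, adjusted p = 0.0166, adjusted p = 0.0542 without ap > GFP replicate 1, 0.142 without ap > GFP replicate 3 and 0.0533 without ap > Yki+NelfAi replicate 1). In ap > Yki it was at 24.1, 41.9 and 169.6. The late factor br was at 577 and 479.8 in ap > GFP and 68.02, 77.2 and 125 in ap > Yki+NelfAi and the RNA-binding protein gene Imp at 49.7 and 25.7 in ap > GFP and 185, 99.3 and 117 in ap > Yki+NelfAi, without overlap, but neither was called (adjusted p = 0.0682 and 0.265). In ap > Yki, br was at 126, 179 and 448 and Imp at 11.1, 20.9 and 95.7, so that replicate 3 of ap > Yki stood apart from the other ones for these 3 genes. In ap > NelfAi, br was at 82.4 and 1050 and Imp at 3.52 and 55. With the 2 compared genotypes alone, limma gave adjusted p = 0.000241 for br and 0.00393 for Imp. Over all genotypes edgeR gave 0.0587 and 0.28, and DESeq2 0.00668 and 0.279.

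Cuticle genes were called in both directions, 19 (14 and 14) of 47 lower and 10 (6 and 5) higher. Cuticle proteins bind chitin, and different sets are made for the larval, pupal and adult cuticle. Lcp1, Lcp2, Lcp3 and Lcp4, neighbours that encode larval cuticle proteins, were all lower. Lcp1 was at 199.8 and 71.1 in ap > GFP and 0.617, 1.58 and 0.299 in ap > Yki+NelfAi (log2 fold change -6.61, SE 0.85, adjusted p = 0.000732) and Lcp4 at 176 and 63.2 in ap > GFP and 0.285, 1.03 and 0.349 in ap > Yki+NelfAi (log2 fold change -6.72, SE 0.89, adjusted p = 0.000855). For each of the 4 genes ap > GFP replicate 1 was well above replicate 3. Cpr49Ac, with closer controls, was at 134 and 150.2 in ap > GFP and 7.64, 5.89 and 5.74 in ap > Yki+NelfAi (log2 fold change -4.38, SE 0.31, adjusted p = 2.75e-05).

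Among the cuticle genes that rose, Lcp65Ag1, Lcp65Ag2 and Lcp65Ag3 are near-identical neighbours, and reads without a unique place are not part of their values either. Lcp65Ag2 was at 0.0639 and 0 in ap > GFP and 30.97, 145 and 103 in ap > Yki+NelfAi, which is 1 read in all in ap > GFP. Lcp65Ag1 was at 0 and 0 in ap > GFP and 8.59, 28.7 and 20.5 in ap > Yki+NelfAi, at least 109-fold above 3 reads per library. In ap > Yki the 2 genes were at 9.65, 7.79 and 17.1 and at 2.64, 2.04 and 4.32.

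Zona pellucida domain proteins anchor epidermal cells to the cuticle above them, and in this added list 6 (5 and 4) of 9 tested genes were called lower and none higher. The values of neo were 62.1 and 68.4 in ap > GFP and 1.28, 1.58 and 2.54 in ap > Yki+NelfAi (log2 fold change -4.87, SE 0.32, adjusted p = 2.54e-05), of nyo 34.8 and 34.8 in ap > GFP and 0.142, 0.891 and 2.29 in ap > Yki+NelfAi (log2 fold change -4.70, SE 0.55, adjusted p = 0.000461) and of mey 17.7 and 20.4 in ap > GFP and 0.142, 0.617 and 1.2 in ap > Yki+NelfAi (log2 fold change -4.19, SE 0.38, adjusted p = 0.000118). The list for chitin and its matrix, given next, also holds neo and mey, so its lower calls include them again. Of 23 genes for chitin and its matrix, 7 (6 and 4) were called lower and 3 (2 and 0) higher, the second count being 1 without any 1 tumorous library. The chitinase gene Cht3, now Cht10, was at 319 and 357 in ap > GFP and 38.1, 48.7 and 69.4 in ap > Yki+NelfAi (log2 fold change -2.73, SE 0.51, adjusted p = 0.00531, adjusted p = 0.0512 without ap > GFP replicate 3) and knk, which protects new chitin, at 37.6 and 35.4 in ap > GFP and 5.88, 8.98 and 7.13 in ap > Yki+NelfAi (log2 fold change -2.26, SE 0.34, adjusted p = 0.00172). Opposite to them, the chitin deacetylase gene serp rose, at 254 and 201 in ap > GFP and 472, 518 and 442 in ap > Yki+NelfAi (log2 fold change 1.07, SE 0.22, adjusted p = 0.00734, adjusted p = 0.0908 without ap > GFP replicate 3), in a run of 4 higher genes on chromosome 3L, from position 19683941 to 19798979, that holds the second deacetylase gene verm, whose call was lost in 5 of the 10 fits that left out 1 library (adjusted p = 0.325 without ap > GFP replicate 3, 0.0604 without ap > Yki replicate 2, 0.101 without ap > Yki+NelfAi replicate 1, 0.0923 without ap > Yki+NelfAi replicate 2 and 0.0646 without ap > Yki+NelfAi replicate 3).

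In an added list of genes that colour and harden cuticle, 8 (6 and 6) of 18 members were called lower and 1 (0 and 0) higher. The gene t (tan), a hydrolase that returns dopamine from its beta-alanine conjugate, was at 20.5 and 23.3 in ap > GFP and 0.237, 0 and 0.0499 in ap > Yki+NelfAi (log2 fold change -5.25, SE 0.26, adjusted p = 1.26e-05). The gene e (ebony), which makes this conjugate, was at 7.16 and 5.61 in ap > GFP and 0.427, 0.0685 and 0.0998 in ap > Yki+NelfAi (log2 fold change -3.33, SE 0.60, adjusted p = 0.00406). Pu, which starts synthesis of the pterin cofactor of tyrosine hydroxylase, was at 3.39 and 3.78 in ap > GFP and 0.237, 0.274 and 1.15 in ap > Yki+NelfAi (log2 fold change -2.06, SE 0.35, adjusted p = 0.00299). In ap > Yki, t was at 0.162, 0.0475 and 0.0464. On chromosome 3R, from position 13403423 to 13428375, yellow-e3, yellow-e2, yellow-e and the neighbouring actin gene Act87E were all called lower, with a median of -2.52. The member called higher was y (yellow), at 0.192 and 0.216 in ap > GFP and 1.47, 4.52 and 1.95 in ap > Yki+NelfAi (log2 fold change 2.04, SE 0.55, adjusted p = 0.026, adjusted p = 0.132 without ap > GFP replicate 1, 0.132 without ap > GFP replicate 3, 0.0845 without ap > Yki+NelfAi replicate 2 and 0.0537 without ap > Yki+NelfAi replicate 3).

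In an added list of secreted proteases of the Toll and melanization cascades and their inhibitors, 13 (11 and 8) of 20 tested members were called lower and 1 (0 and 0) higher, with a median log2 fold change of -1.48. These proteases act in sequence in the hemolymph, from recognition proteins such as GNBP3 through modSP and grass. The recognition protein gene GNBP3 was at 50.8 and 55.9 in ap > GFP and 1.28, 6.85 and 6.13 in ap > Yki+NelfAi (log2 fold change -3.60, SE 0.52, adjusted p = 0.00126). The protease genes grass and MP1 were at 21.03 and 17.6 in ap > GFP and 1.66, 1.23 and 1.6 in ap > Yki+NelfAi (log2 fold change -3.31, SE 0.21, adjusted p = 2.54e-05) and at 33.6 and 38.8 in ap > GFP and 6.4, 8.16 and 10.5 in ap > Yki+NelfAi (log2 fold change -2.07, SE 0.22, adjusted p = 0.000284). Of 13 serpins 7 (5 and 4) were called lower and 1 (1 and 0) higher. Spn43Aa was at 130 and 152 in ap > GFP and 0, 1.65 and 0.499 in ap > Yki+NelfAi (log2 fold change -7.11, SE 0.63, adjusted p = 9.95e-05).

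Immune genes as a wider list had 3 (2 and 2) of 20 lower and 1 (1 and 0) higher. The lower ones included spz6, a spätzle-like ligand gene, at 18.1 and 16.7 in ap > GFP and 0.285, 0.206 and 0.15 in ap > Yki+NelfAi (log2 fold change -4.65, SE 0.24, adjusted p = 1.52e-05). The higher one was Dif, a NF-kappaB factor of the Toll pathway, at 4.86 and 4.16 in ap > GFP and 20.7, 23.8 and 14.2 in ap > Yki+NelfAi (log2 fold change 1.97, SE 0.39, adjusted p = 0.00643, adjusted p = 0.0625 without ap > GFP replicate 3), and at 21.2, 13.3 and 26.1 in ap > Yki.

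The cytoskeleton and the matrix below the cells had more members called lower than higher. In an added list of tubulins 5 (1 and 3) of 8 tested genes were called lower and none higher. The gene betaTub60D was at 146 and 132 in ap > GFP and 0.854, 16.04 and 5.39 in ap > Yki+NelfAi (log2 fold change -4.77, SE 0.83, adjusted p = 0.00342), and the widely expressed betaTub56D at 3559 and 3305 in ap > GFP and 1546, 1544 and 1979 in ap > Yki+NelfAi (log2 fold change -1.03, SE 0.19, adjusted p = 0.00464, adjusted p = 0.0541 without ap > GFP replicate 1). Of 34 actin and motility genes 8 (4 and 2) were called lower and 2 (2 and 2) higher, of which cher, a filamin, was at 151 and 127 in ap > GFP and 650.5, 453 and 510.3 in ap > Yki+NelfAi (log2 fold change 1.94, SE 0.25, adjusted p = 0.000845). Of 23 basement membrane and integrin genes 6 (1 and 1) were called lower and 1 (0 and 0) higher. The first count was 2 without ap > Yki+NelfAi replicate 2. The collagen gene Mp was at 8.76 and 10.3 in ap > GFP and 0.379, 0.891 and 0.848 in ap > Yki+NelfAi (log2 fold change -3.08, SE 0.49, adjusted p = 0.00211). Apical-basal polarity and junction genes had few calls, with 1 (0 and 0) of 29 higher and 3 (0 and 1) lower. The 21 genes of the septate junction had 1 (0 and 0) higher and 1 (1 and 1) lower call.

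In bulk tissue, fewer cells of a type and less RNA per cell cannot be told apart. Markers of tissues that cling to the disc or share the dissection were checked in this light. The salivary gland list, mostly glue genes, had 8 (7 and 5) of 8 members called lower. Its summed value was 80.6 and 375 in ap > GFP and 0.379, 0.685 and 4.84 in ap > Yki+NelfAi. The midgut list had 7 (1 and 5) of 11 lower, 4 without ap > Yki+NelfAi replicate 3, with sums of 354 and 111 in ap > GFP and 43.97, 33.6 and 20.1 in ap > Yki+NelfAi. The control libraries differed from each other in both sums, in opposite order. These sums moved in the same direction as the lower groups above, and their part in those results was not tested. Sgs3, a glue gene, was at 20.8 and 73.5 in ap > GFP and 0.0474, 0.0685 and 1.6 in ap > Yki+NelfAi (log2 fold change -5.52, SE 0.76, adjusted p = 0.001).

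Of 21 muscle genes, 13 (4 and 8) were called lower and none higher, with a median log2 fold change of -2.46, and of 15 myoblast genes 8 (5 and 6) and none, with a median of -1.45. The summed muscle value was 1059 and 680.3 in ap > GFP and 511, 426 and 416 in ap > Yki+NelfAi. The actin gene Act57B was at 174 and 80.03 in ap > GFP and 5.03, 7.2 and 3.54 in ap > Yki+NelfAi (log2 fold change -4.42, SE 0.56, adjusted p = 0.000699). The myoblast regulator twi was at 21.03 and 19.2 in ap > GFP and 5.46, 4.11 and 6.29 in ap > Yki+NelfAi (log2 fold change -1.85, SE 0.23, adjusted p = 0.000689), and Him, which holds myoblasts back from differentiation, at 4.79 and 6.21 in ap > GFP and 0.759, 1.58 and 0.698 in ap > Yki+NelfAi (log2 fold change -2.03, SE 0.30, adjusted p = 0.00136). Mef2, which drives muscle differentiation, was at 33.4 and 30 in ap > GFP and 25.5, 23.2 and 25.9 in ap > Yki+NelfAi and was not called (adjusted p = 0.508), nor was Mhc, at 36.4 and 17.3 in ap > GFP and 13.2, 5.96 and 7.08 in ap > Yki+NelfAi (log2 fold change -1.55, adjusted p = 0.0989). In ap > NelfAi, Mhc was at 62.4 and 14.8. With the 2 compared genotypes alone, limma gave adjusted p = 0.0161 for Mhc, and over all genotypes edgeR gave 0.0903 and DESeq2 0.0332.

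Other tissues gave smaller counts. Of 7 glial genes 1 (0 and 0) was called higher and 2 (1 and 1) lower, and of 9 fat body genes 1 (0 and 0) higher and none lower. Of 10 tracheal genes 3 (2 and 1) were called lower and 1 (1 and 1) higher. The higher one was bnl, the FGF ligand that draws tracheal branches, at 1.92 and 1.62 in ap > GFP and 10.2, 26.7 and 12.7 in ap > Yki+NelfAi (log2 fold change 2.79, SE 0.44, adjusted p = 0.00196), and its receptor gene btl was lower, at 1.98 and 1.83 in ap > GFP and 0.569, 0.617 and 0.499 in ap > Yki+NelfAi (log2 fold change -1.18, SE 0.28, adjusted p = 0.0155, adjusted p = 0.106 without ap > GFP replicate 1 and 0.0886 without ap > GFP replicate 3). Of 12 hemocyte genes 1 (1 and 1) was called, atilla, a marker of lamellocytes, at 1.41 and 1.24 in ap > GFP and 6.59, 15.7 and 8.58 in ap > Yki+NelfAi (log2 fold change 2.48, SE 0.42, adjusted p = 0.00312), while Hml, of plasmatocytes, was at 3.96 and 3.67 in ap > GFP and 8.59, 9.87 and 10.6 in ap > Yki+NelfAi (adjusted p = 0.259). In ap > Yki, Hml was at 4.04, 3.51 and 30.4. With the 2 compared genotypes alone, limma gave adjusted p = 0.00172 for Hml, and over all genotypes edgeR gave 0.29 and DESeq2 0.21. The summed hemocyte value was 64.2 and 75.5 in ap > GFP and 76.8, 86.8 and 74.9 in ap > Yki+NelfAi, with overlapping libraries. Of the 4 tested neuronal genes limma, edgeR and DESeq2 called 0, with 0 at an unadjusted p under 0.05.

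**Figure D5:**
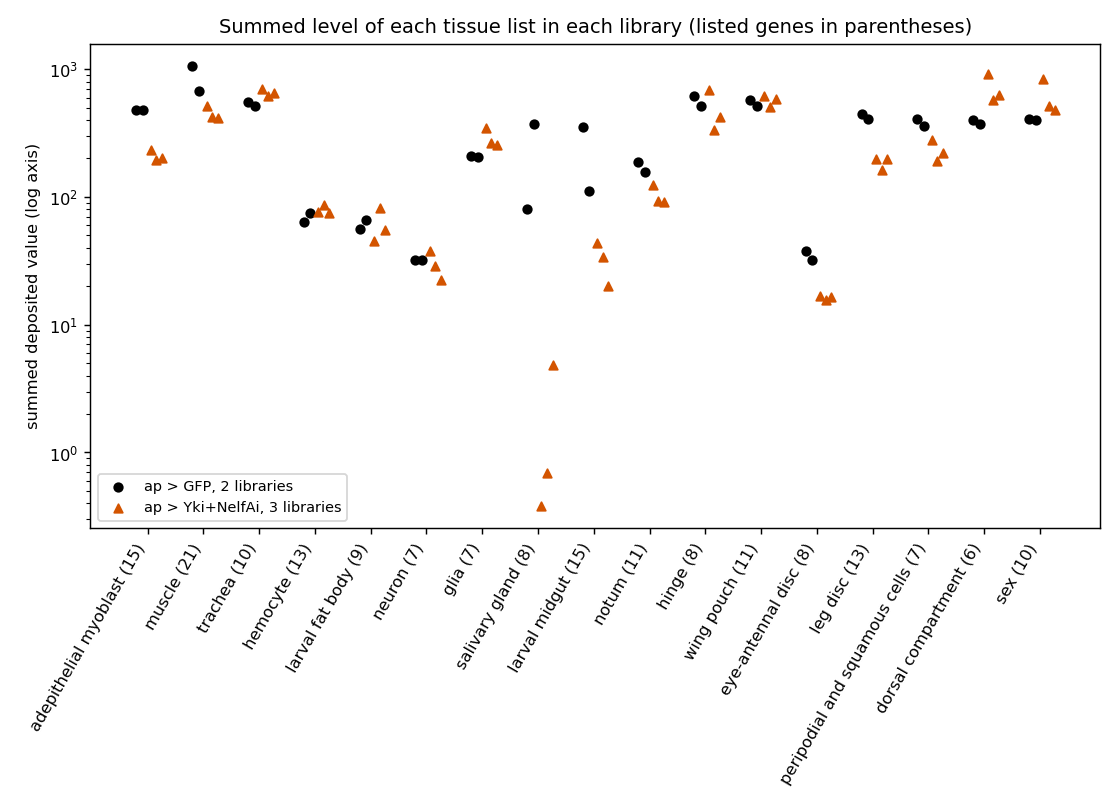
Summed deposited value of the listed genes of each tissue list in each library, on a log axis. Circles are the 2 ap > GFP and triangles the 3 ap > Yki+NelfAi libraries. The salivary gland sums are 80.6 and 375 in ap > GFP and at most 4.84 in ap > Yki+NelfAi, whereas the hemocyte and wing pouch sums overlap.

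Of 9 tested genes of sex determination and dosage compensation, 1 (1 and 0) was called higher and 1 (1 and 1) lower. The gene fru, also used in sensory circuits, was at 58.9 and 34.8 in ap > GFP and 421, 208 and 228 in ap > Yki+NelfAi (log2 fold change 2.57, SE 0.54, adjusted p = 0.00894, adjusted p = 0.0937 without ap > GFP replicate 3), and dsx at 24.8 and 21.4 in ap > GFP and 2.37, 3.43 and 4.99 in ap > Yki+NelfAi (log2 fold change -2.57, SE 0.41, adjusted p = 0.00215). In ap > Yki, dsx was at 10.5, 11.7 and 18.2.

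Several of the largest rises were of genes on no list. CG34109 was at 0 and 0 in ap > GFP and 38.5, 24.4 and 17.2 in ap > Yki+NelfAi, at least 151-fold above 3 reads per library, and at 0, 0 and 0.0464 in ap > Yki. Arc1, whose protein forms capsid-like shells around RNA, was at 27.9 and 27.7 in ap > GFP and 474, 953 and 363 in ap > Yki+NelfAi (log2 fold change 4.28, SE 0.57, adjusted p = 0.000893) and at 61.6, 32.01 and 34.5 in ap > Yki. The neuropeptide-like precursor gene Nplp4 was at 2.24 and 0.378 in ap > GFP and 29.6, 39.3 and 22.8 in ap > Yki+NelfAi (log2 fold change 4.29, SE 0.53, adjusted p = 0.000603) and at 1.46, 0.617 and 0.65 in ap > Yki. For these 3 genes the highest ap > Yki library lay below the lowest tumorous one. The values of CG11697, now Reepl1, were 0.0639 and 0.162 in ap > GFP and 14.3, 14.1 and 13.8 in ap > Yki+NelfAi (log2 fold change 4.57, SE 0.23, adjusted p = 1.26e-05), and 9.16, 9.5 and 13.4 in ap > Yki.

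Large falls off the lists included wbl, which encodes a chaperone of the endoplasmic reticulum first known from the dorsoventral axis of the egg, at 72.05 and 86.1 in ap > GFP and 0.19, 0.137 and 0.698 in ap > Yki+NelfAi (log2 fold change -6.62, SE 0.43, adjusted p = 2.54e-05). CG42500 was at 169 and 134 in ap > GFP and 0.474, 3.08 and 0.599 in ap > Yki+NelfAi (log2 fold change -6.59, SE 1.15, adjusted p = 0.0035) and CG13460 at 58.5 and 47.5 in ap > GFP and 0.142, 0.137 and 0 in ap > Yki+NelfAi (log2 fold change -6.50, SE 0.81, adjusted p = 0.000641). In ap > Yki wbl was at 17.2, 15.6 and 6.32. The highest tumorous value of these 3 genes was 3.08, for CG42500.

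The called genes were spread over the genome and over levels, though in unequal shares over levels. On the large chromosome arms, between 8.66% (3R) and 12.5% (2L) of tested genes were called higher and between 11.2% (2L) and 13.7% (3R) lower. On the small chromosome 4, 5 of 64 were called higher and 3 lower. The median transcript length was 2038 bases for the genes called higher, 1959 for those called lower and 2103 for all tested. Genes with a mean under 1 in ap > GFP could hardly fall past the limits, and they passed the filter only with libraries of other genotypes. Of 426 of them 95 (22.3%) were called higher and 11 (2.58%) lower, shares that were partly fixed in advance by these limits. Of 143 genes with a mean over 500, 23 (16.1%) were called higher and 24 (16.8%) lower. For means from 20 to 100 the shares were 6.68% and 10.9%.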

How the data were processed

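RNA of pooled wing discs was sequenced from 4 genotypes in 10 libraries. The authors aligned reads with HISAT, and the submitters' notes also name StringTie, edgeR, bcl2fastq and the dm6 assembly, without versions or roles. The deposited table gives a signal per gene, whole reads divided by a factor of each library. Whole reads were recovered for 100.0% of values (tolerance 0.001 read). The deposited comparison tables hold the authors' fold changes, p-values and FDR and were not used. Of 7987 listed genes, 7876 matched the reference annotation. The 5 rows that name no gene held 28.4% to 36.5% of reads and were left out. The 7858 genes that reached a value of 1 in 2 or more libraries entered the test. The test was limma (3.58.1, R 4.3.3, with trend) on log2(value + 0.5), all 10 libraries, genotype as factor, contrast ap > Yki+NelfAi minus ap > GFP, with Benjamini-Hochberg adjustment over all tested genes. Calls needed an adjusted p under 0.05 and 1.5-fold. edgeR (4.0.16) and DESeq2 (1.42.0) on the recovered reads, other scalings, filters, pseudocounts, a replicate block and leaving out each library were alternatives. The fit was tested on simulated data.

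The submitters' text and the study's methods differ on the number of replicates, and the table holds 2 control and 3 tumorous libraries. Discs were collected separately, so p-values measure the spread between collections, pooled over all 4 genotypes. A spread within ap > NelfAi or ap > Yki therefore enters them too, as for EcR, at 13.1 and 62 in ap > NelfAi. Genes described were drawn from yki, Nelf-A, chosen markers, the up to 4 called members per list and direction with the largest change and a mean of at least 5, and the 15 largest rises and falls. Not all of these are described, and others were named after their values had been seen. The members of the lists were chosen with earlier results of these data known. Counting by strand is not given in the sources used here, and antisense and overlapping genes may share reads. A planned search of promoters for motifs was not run, and no sequence is shown.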

Additional observations from a re-analysis of the deposited data

How the results depend on the processing

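The number of genes called higher was 452 with CPM, 1303 with the 2 compared genotypes alone, 439 with the replicate number as a replicate block and 499 with a minimum of 2-fold, against 789. The number called lower stayed within 1.5 times of 947 in these 4 fits, at 1354, 1347, 652 and 754. Leaving out 1 library gave 268 to 1131 higher and 426 to 1247 lower calls, both lowest without ap > GFP replicate 3 and both highest without ap > NelfAi replicate 1. With edgeR there were 739 higher and 927 lower calls (730 and 903 shared with limma), and with DESeq2 905 and 1138 (778 and 945 shared). Whether equal replicate numbers pair the libraries cannot be told, since only 2 numbers are shared. Correlations of deviations were 0.15 and 0.12 for equal numbers and ran from -0.15 to 0.09 for unequal ones. The deviations of the 2 control libraries mirror each other, so these values are not independent. Of 162 called genes named in the text, none changed direction under any alternative, 9 lost their call with CPM and 12 under the block, and the causes were not tested. The uncalled Antp ran from -0.23 to 0.19 on the log2 scale, and the uncalled E(spl)m8-HLH from -0.76 to 0.12, when 1 library was left out. Of 52 list medians past 0.1 from 0, 3 changed sign with CPM (antimicrobial and immune, V-ATPase and lysosome, germline and piRNA) and 0 with RLE size factors. The 2 control libraries set the precision of each change, and with 1 left out the other was assumed to vary like the rest. Sampling limits genes of low level most, where 1 read was worth 0.0464 to 0.0839.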
